A study of Mus musculus with 40 samples.

Results

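The enzymes described here are 10 genes of the mitochondrial tricarboxylic acid (TCA) cycle and of the steps that feed it, which use NAD+, form part of a complex that does, or stand beside such a step. They are Pdha1, Dld, Cs, Idh3a, Idh3b, Idh3g, Ogdh, Mdh2, Mdh1 and Glud1. The genes were chosen by name and by no threshold on their values, with earlier results of these data known. All 10 were found among the 55487 genes of the deposited count table, and all 10 were among the 20297 genes that passed the filter on low counts. They were followed in liver RNA of mice in which hepatocytes lack Nampt, the rate-limiting enzyme of NAD+ salvage from nicotinamide.

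The TCA cycle oxidises acetyl-CoA in the mitochondrial matrix and passes the electrons to NAD+, and the NADH formed is the main substrate of the respiratory chain. Pyruvate enters through the pyruvate dehydrogenase complex, whose catalytic subunit is encoded by Pdha1 and whose last subunit, the dihydrolipoamide dehydrogenase encoded by Dld, reduces NAD+. Cs makes citrate without NAD+. The NAD-linked isocitrate dehydrogenase is a complex of a catalytic subunit, Idh3a, with the subunits Idh3b and Idh3g. Ogdh starts the 2-oxoglutarate dehydrogenase complex, which shares the Dld subunit, and Mdh2 closes the cycle. Mdh1 is the cytosolic partner of Mdh2 in the malate-aspartate shuttle, and Glud1 joins the cycle to amino acid breakdown, a large flux in liver.

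The mice were female, of the strain label C57BL/6JBomTac and 9 weeks old, and ate a purified control diet (PD), with livers taken after 3, 6, 12 and 21 days. The labels give these days as ages, whereas the study's methods give them as days of feeding, which are used here. Hepatocyte-specific Nampt knockout (HNKO) mice carried 2 floxed Nampt alleles and 1 Alb-Cre transgene, and the WT littermates carried the same floxed alleles without Cre. Alb-Cre is driven by the promoter of a gene of hepatocytes, and Nampt was not measured apart in the other cells of the liver piece. Each library came from 1 mouse, and the libraries are named by the number in their labels. There were 5 WT and 5 HNKO libraries at day 3, 4 and 5 at day 6, 5 and 6 at day 12, and 5 and 3 at day 21, which makes 19 of each genotype. A further 2 HNKO libraries of day 21, numbers 17 and 18, are labelled as failing quality control and were left out.

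Nampt was at 0.562 of the WT level in HNKO liver over the mean of the 4 days (log2 fold change -0.83, SE 0.12, edgeR adjusted p = 2.61e-06). Total counts ran from 16151037 to 64181492 per library with a median of 26466478.5. At day 21 the share of counts on mitochondrially encoded genes was 3.85% to 7.62% in WT and 2.59% to 3.18% in HNKO, and at day 6 it was 6.14% to 7.5% in WT and 4.07% to 6.03% in HNKO, so the HNKO libraries of these days stood below all WT libraries. The ranges overlapped at day 3 (4.87% to 5.69% and 4.6% to 5.79%) and at day 12 (6.59% to 8.33% and 2.85% to 6.76%). HNKO library 29 of day 6 had the lowest value of its group for 8 of the 10 genes and the lowest of all 38 libraries for 5, and the day 6 values of the 10 genes are also given without it.

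Averaged over the 4 days, 9 of the 10 genes were lower in HNKO and none was higher (edgeR, adjusted p under 0.05). Among all tested genes, 17.3% were called lower in this comparison and 36.4% in either direction. Idh3b and Dld had the smallest p-values, and Glud1 was not called. The median log2 fold change of the 10 genes was -0.26, against -0.01 for all tested genes. The 10 genes are abundant in liver, and of the 4338 tested genes within their range of mean expression (4.98 to 10.18 log2 CPM) 40.6% were called lower, with a median of -0.10. In whole liver, fewer hepatocytes and less of these RNAs in each hepatocyte cannot be told apart.

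These calls rest on the scaling of the libraries. The values here were scaled by TMM, whose factors were 0.86 to 1.05 in WT and 0.95 to 1.24 in HNKO. The 10 most abundant genes of each library took 18.9% to 25.4% of counts in WT and 16% to 21.4% in HNKO. With library totals alone, an alternative added after seeing the data, the median log2 fold change of all tested genes moved from -0.01 to 0.19 over the mean of the 4 days, and the share of lower genes among those called fell from 47.4% to 9.8%. In that scaling 2 of the 10 genes, Idh3b and Dld, stayed called lower over the mean of the 4 days (4.62% of all tested genes were), the median of the 10 was -0.07, and the values of Ogdh, Mdh2 and Glud1 moved above 0, to 0.02, 0.01 and 0.08.

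**Figure D1:**
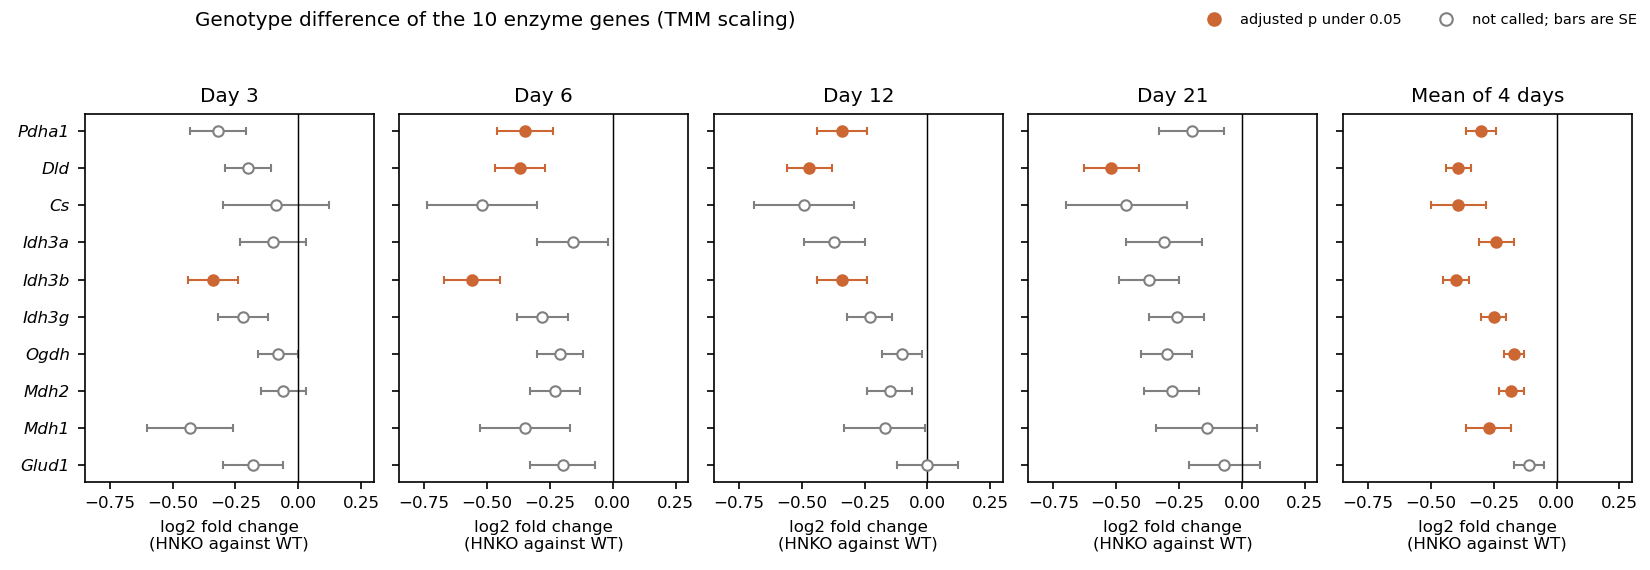
Log2 fold change of HNKO against WT for the 10 genes at days 3, 6, 12 and 21 and over the mean of the 4 days, with TMM scaling. Points are edgeR estimates, bars their SE, and filled points have an adjusted p under 0.05. All points but Glud1 at day 12 lie below 0, Idh3b is filled at 3 of the 4 days and Dld at 3, and with library totals only Idh3b and Dld alone stay filled over the mean of the 4 days.

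The promoters of the 10 genes were examined because most of the genes were lower together. RefSeq sequences from 250 bases before to 50 after the start (GRCm38.p6) covered 9 of the 10 genes, and Idh3a had no entry. The first listed entry of each gene was used, and Ogdh had 6 entries. They were searched on both strands for motifs of factors known at genes of mitochondrial proteins, and the shares below are of 17492 promoters of the same length. The GABP motif CCGGAAG was found in 3 of 9 (Glud1, Idh3b and Idh3g), against 11.9% of all promoters. The CREB motif TGACGTCA was found in 2 of 9 (Mdh2 and Ogdh), against 2.34%, and the YY1 motif AAGATGG in 1 (Idh3g), against 6.37%. The SP motif GGGCGG was found in 5 of 9, against 46.3%, the NRF1 motif CGCATGCG in 0, against 2.54%, and the ERR motif AAGGTCA in 0, against 4.08%. A match is a description of the letters and not a binding site.

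The sequences below show the GABP, CREB and YY1 matches in windows of 30 bases, 5′ to 3′ on the strand of the gene, with the motif in capitals on either strand. They lie at chr2:130284438-130284467 (Idh3b), chrX:73786983-73787012 and chrX:73787009-73787038 (Idh3g), chr14:34310489-34310518 (Glud1), chr5:135778511-135778540 (Mdh2) and chr11:6291535-6291564 (Ogdh).
Idh3b, GABP: gaccgcgctcgCTTCCGGcgtcacttcccc
Idh3g, GABP: tgctctaggcaCCGGAAGggggcgtaagaa
Idh3g, YY1: ttcccctccccAAGATGGcggaacagtgct
Glud1, GABP: acgggaccgacCTTCCGGgccgcggccgcg
Mdh2, CREB: ggagagaatcgTGACGTCAggcctcgctcg
Ogdh, CREB: acccaattctgTGACGTCAcgtcacgccca

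The subunit Pdha1 admits pyruvate carbon to the cycle. Its gene lies at chrX:160122209-160138413 on the minus strand (GRCm38). At day 3 the WT libraries held 6.78, 6.78, 6.80, 6.85 and 7.09 log2 CPM, and the HNKO libraries 6.46, 6.53, 6.55, 6.57 and 6.62. Every HNKO library was thus below every WT library at day 3, and Pdha1 was the only one of the 10 genes without overlap at that day, where 1.80% of all tested genes had this order. At day 6 WT held 6.70, 6.79, 6.92 and 7.01 and HNKO 6.18, 6.40, 6.52, 6.63 and 6.74. At day 12 WT held 6.84, 6.85, 6.97, 7.10 and 7.26, and HNKO ran from 6.44 through a median of 6.61 to 6.94. At day 21 WT held 6.58, 6.67, 6.82, 6.91 and 7.05 and HNKO 6.48, 6.63 and 6.71. The groups overlapped at days 6, 12 and 21, where 1, 2 and 2 HNKO libraries reached the WT range.

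Pdha1 was called lower at day 6 (log2 fold change -0.35, SE 0.11, edgeR adjusted p = 0.0356) and day 12 (-0.34, SE 0.10, adjusted p = 0.038). The estimates of -0.32 at day 3 (SE 0.11, adjusted p = 0.0759) and -0.20 at day 21 (SE 0.13, adjusted p = 0.409) were not called. Its log2 fold change over the mean of the 4 days was -0.30 (SE 0.06, adjusted p = 6.96e-05), and -0.11 with library totals only (adjusted p = 0.0975). The call at day 6 was lost without HNKO library 7 or 29 or WT library 8 or 27 (adjusted p from 0.0794 to 0.182), and the call at day 12 without any 1 of 8 libraries (11, 12, 13, 15, 16, 30, 34 and 38, adjusted p from 0.0509 to 0.127). Of its exonic stretches of 51 bases, the read length, 12.8% also occur in other genes, chiefly Map3k15 on the opposite strand, whose median count was 37.5 against 2798 for Pdha1.

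The gene Dld encodes the NAD-reducing subunit that the pyruvate and 2-oxoglutarate dehydrogenase complexes share. It lies at chr12:31331277-31351453 on the minus strand, 1.47 Mb from Nampt on the same chromosome, and both genotypes carried the floxed Nampt allele. At day 3 the WT libraries held 6.60, 6.71, 6.74, 6.74 and 6.94 log2 CPM and the HNKO libraries 6.26, 6.51, 6.55, 6.61 and 6.75. These groups overlapped. At day 6 WT held 6.73, 6.82, 6.92 and 7.03 and HNKO 6.18, 6.52, 6.58, 6.59 and 6.64. At day 12 WT held 6.73, 6.78, 6.95, 6.95 and 7.10, and HNKO ran from 6.27 through a median of 6.47 to 6.53. At day 21 WT held 6.50, 6.70, 6.79, 6.80 and 6.82 and HNKO 5.99, 6.31 and 6.31. From day 6 on, every HNKO library lay below every WT library of its day.

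Dld was called lower at 3 of the 4 days. Its log2 fold change reached -0.37 at day 6 (SE 0.10, edgeR adjusted p = 0.0121), -0.47 at day 12 (SE 0.09, adjusted p = 0.00265) and -0.52 at day 21 (SE 0.11, adjusted p = 0.00945). The day 3 estimate of -0.20 missed the threshold (SE 0.09, adjusted p = 0.205). In the mean of the 4 days it was at 0.763 of the WT level (-0.39, SE 0.05, adjusted p = 2.61e-07). Scaled to library totals only, this was -0.20 (adjusted p = 0.000369), and the call of day 6 was lost (adjusted p = 0.191). Leaving out 1 library ended the call at day 6 for HNKO library 29 (-0.28, adjusted p = 0.0835) and WT library 8 (-0.32, adjusted p = 0.0621). At day 21 it ended without HNKO library 37 (-0.40, adjusted p = 0.289). Although the estimates went from -0.20 at day 3 to -0.52 at day 21, the interaction of genotype and day did not pass its test (unadjusted p = 0.131, adjusted p = 1).

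The gene Cs encodes citrate synthase, which joins acetyl-CoA and oxaloacetate, and lies at chr10:128337734-128362479 on the plus strand. Its WT libraries were widely spread, with 7.37 to 7.80 log2 CPM at day 3, 7.19 to 8.12 at day 6, 7.23 to 8.54 at day 12 and 7.10 to 7.87 at day 21. The HNKO libraries held 7.21 to 7.74, 6.56 to 7.42, 7.20 to 7.95 and 6.90 to 7.17 at the same days, and the groups overlapped at every day. The SD of Cs within groups was 0.34 on the log2 scale, above that of 89.5% of tested genes of similar level and the largest of the 10 genes.

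Cs was not called at any single day, with log2 fold changes of -0.09, -0.52, -0.49 and -0.46 (edgeR adjusted p of 0.844, 0.111, 0.112 and 0.31). It was called over the mean of the 4 days (-0.39, SE 0.11, adjusted p = 0.00427), where 19 libraries a genotype narrow the error. Scaled to library totals only, that value was -0.20 (adjusted p = 0.15) and the value at day 3 turned to 0.08. Without WT library 16 the call at day 12 passed (-0.64, adjusted p = 0.04).

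The subunits of the NAD-linked isocitrate dehydrogenase differed in how far their groups separated. Idh3b lies at chr2:130279309-130284547 on the minus strand. At day 3 its WT libraries held 7.40, 7.45, 7.50, 7.52 and 7.66 log2 CPM and its HNKO libraries 6.97, 6.99, 7.18, 7.22 and 7.42. At day 6 WT held 7.42, 7.45, 7.61 and 7.68 and HNKO 6.47, 6.86, 7.10, 7.17 and 7.20. Of the 5 HNKO libraries of day 3, 1 reached the WT range, and at day 6 none did. At day 12 WT held 7.28, 7.30, 7.33, 7.42 and 7.49, and HNKO ran from 6.97 through a median of 7.01 to 7.12. At day 21 WT held 7.13, 7.18, 7.23, 7.24 and 7.26 and HNKO 6.63, 6.86 and 6.99. At both of these days every HNKO library was again below every WT library.

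Idh3b was called lower at days 3, 6 and 12. Its estimates were log2 fold changes of -0.34 at day 3 (SE 0.10, edgeR adjusted p = 0.0413), -0.56 at day 6 (SE 0.11, adjusted p = 0.000659) and -0.34 at day 12 (SE 0.10, adjusted p = 0.0241). At day 21 it was -0.37 and not called (SE 0.12, adjusted p = 0.0668), except without HNKO library 29 of day 6 (adjusted p = 0.0316) or with DESeq2 (DESeq2 adjusted p = 0.0447). Over the mean of the 4 days Idh3b was at 0.755 of the WT level (-0.40, SE 0.05, adjusted p = 3.73e-07), and with library totals only the value was -0.22 (adjusted p = 1.68e-05). Without HNKO library 29 the value at day 6 was -0.43 (adjusted p = 0.00432). The call at day 3 was lost without any 1 of the day 3 libraries 2, 3, 5, 23, 24 and 25, or of libraries 15 and 38 of other days (adjusted p from 0.0506 to 0.137), and the call at day 12 without library 15, 16 or 35 (adjusted p from 0.058 to 0.0711). Idh3b shares exonic bases with Nop56 on the opposite strand (median counts of 4015.5 and 380.5), and the use of strand in counting is not stated.

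Idh3g lies at chrX:73778963-73786897 on the minus strand. At day 12 its WT libraries held 5.90, 5.91, 5.94, 6.11 and 6.28 log2 CPM, while HNKO ran from 5.69 through a median of 5.82 to 5.88. At day 21 WT held 5.65, 5.82, 5.91, 5.94 and 5.97 and HNKO 5.52, 5.64 and 5.64. The groups did not overlap at these days, by as little as 0.02 at day 12 and 0.01 log2 CPM at day 21 as printed, and they overlapped at days 3 and 6. No single day was called (log2 fold changes of -0.22, -0.28, -0.23 and -0.26, edgeR adjusted p from 0.0659 to 0.196), although day 6 was called without HNKO library 6 (adjusted p = 0.0234) or WT library 16 (adjusted p = 0.0496) or with the label series, described below, as a covariate (adjusted p = 0.0376), and was at -0.17 without HNKO library 29 (adjusted p = 0.357). Idh3g was called lower over the mean of the 4 days (-0.25, SE 0.05, adjusted p = 0.000197). Under library totals only the value was -0.06 (adjusted p = 0.274).

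The catalytic subunit Idh3a lies at chr9:54586334-54604661 on the plus strand. Its groups overlapped at every day, with WT libraries from 4.78 to 5.59 log2 CPM and HNKO libraries from 4.45 to 5.26 over all days. The log2 fold changes of -0.10, -0.16, -0.37 and -0.31 were not called at any day (edgeR adjusted p of 0.716, 0.493, 0.0577 and 0.275). The mean of the 4 days was called lower (-0.24, SE 0.07, adjusted p = 0.00655). Under library totals only it was -0.04 (adjusted p = 0.669), and the values of days 3 and 6 turned to 0.07 and 0.05. Without WT library 15 or HNKO library 32, day 12 was called (adjusted p = 0.0469 and 0.0154).

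Within the cycle, Ogdh encodes the subunit of the 2-oxoglutarate dehydrogenase complex that decarboxylates 2-oxoglutarate, and lies at chr11:6291633-6356642 on the plus strand. At day 3 the WT libraries held 7.35, 7.44, 7.50, 7.53 and 7.73 log2 CPM and the HNKO libraries 7.21, 7.45, 7.47, 7.50 and 7.53. At day 21 WT held 7.66, 7.68, 7.72, 7.82 and 7.89 and HNKO 7.33, 7.48 and 7.54. The groups overlapped at days 3, 6 and 12 and not at day 21. The log2 fold changes of -0.08, -0.21 and -0.10 at days 3, 6 and 12 were not called (edgeR adjusted p of 0.641, 0.116 and 0.461). The day 21 estimate of -0.30 was not called either (SE 0.10, edgeR adjusted p = 0.0769). Ogdh was called lower over the mean of the 4 days (-0.17, SE 0.04, adjusted p = 0.00209), and with library totals only the value was 0.02 (adjusted p = 0.657). Ogdh had the smallest SD within groups of the 10 genes, 0.12 on the log2 scale.

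Mdh2, the matrix malate dehydrogenase, lies at chr5:135778480-135790398 on the plus strand. Its WT libraries held 6.30 to 6.95 log2 CPM over all days and its HNKO libraries 6.12 to 6.74, with overlap at every day. No day was called (log2 fold changes of -0.06, -0.23, -0.15 and -0.28, edgeR adjusted p from 0.128 to 0.768), and without HNKO library 29 the value at day 6 was -0.13 (adjusted p = 0.505). Mdh2 was called lower over the mean of the 4 days (-0.18, SE 0.05, adjusted p = 0.00419), and with library totals only it was at 0.01 (adjusted p = 0.834).

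The cytosolic partner, Mdh1, lies at chr11:21556787-21572367 on the minus strand. At day 3 the WT libraries held 8.85, 9.12, 9.23, 9.25 and 9.45 log2 CPM and the HNKO libraries 8.20, 8.63, 8.76, 8.89 and 9.17. The groups overlapped at this day as at the others. Its log2 fold changes of -0.43, -0.35, -0.17 and -0.14 were not called at any day (edgeR adjusted p of 0.14, 0.208, 0.56 and 0.784). Day 6 was at -0.23 without HNKO library 29 (adjusted p = 0.551). The mean of the 4 days was called lower (-0.27, SE 0.09, adjusted p = 0.0163). Without HNKO library 37 of day 21 that call was lost (-0.22, adjusted p = 0.0662) and the value of day 21 was 0.03, and without HNKO library 22 day 3 was called (-0.56, adjusted p = 0.0467). With library totals only the mean of the 4 days was -0.09 (adjusted p = 0.396).

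Glud1, which converts glutamate to 2-oxoglutarate and ammonia, lies at chr14:34310727-34345265 on the plus strand. Its WT libraries held 9.97 to 10.58 log2 CPM over all days and its HNKO libraries 9.80 to 10.48. The groups overlapped at every day, and at day 12 the means were equal at 10.16. Glud1 was the gene of the 10 that was not called over the mean of the 4 days (log2 fold change -0.11, 95% interval -0.24 to 0.01, edgeR adjusted p = 0.171). With the label series as a covariate it was called (-0.14, adjusted p = 0.0378). Of its stretches of 51 bases, 6.4% also occur in pseudogenes.

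**Figure D2:**
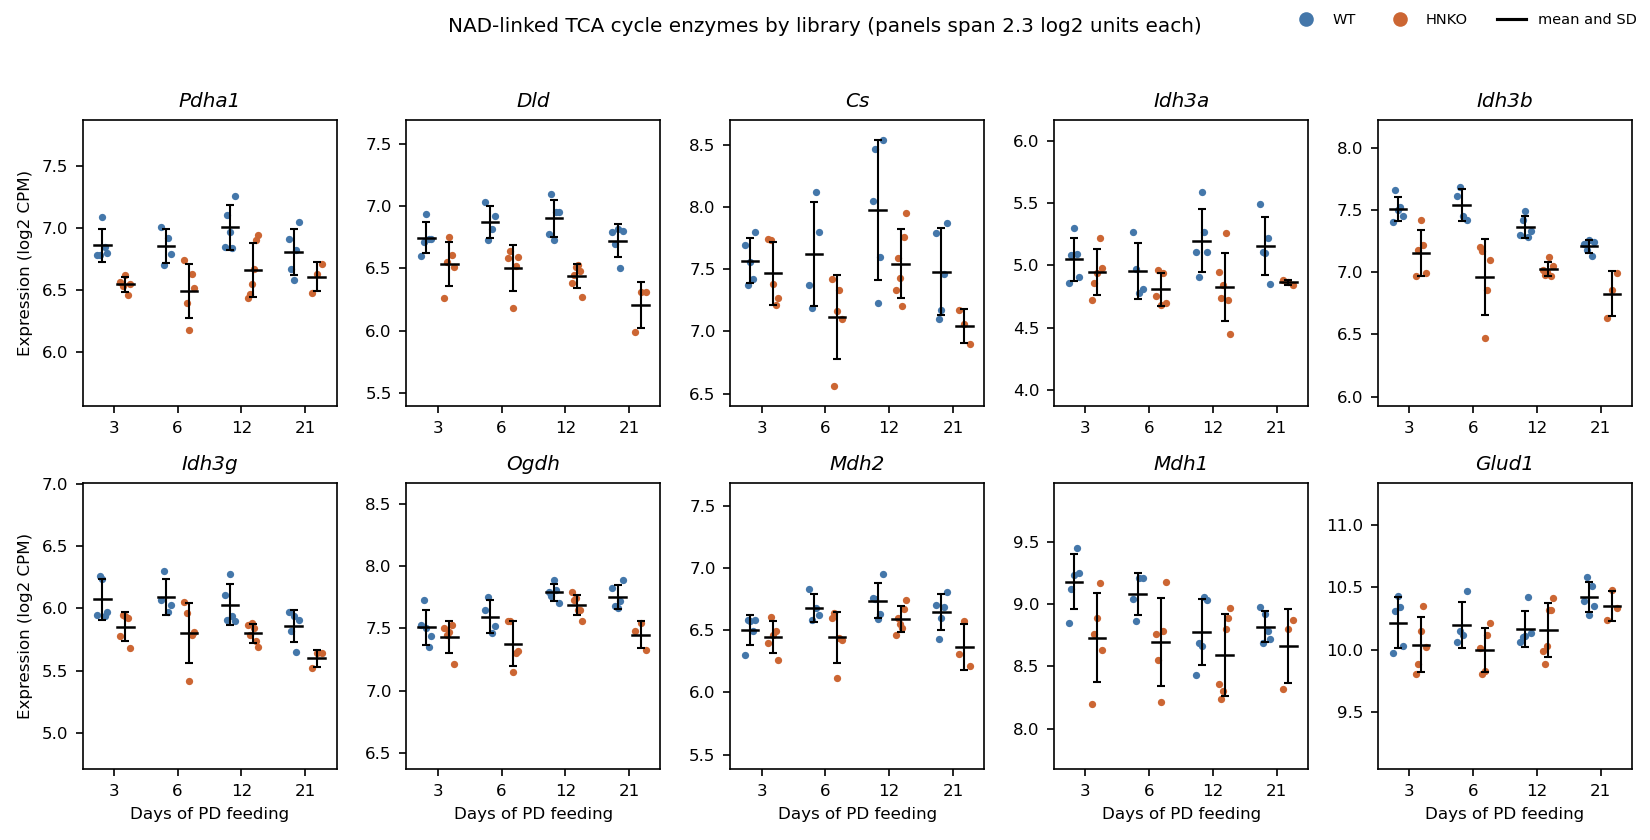
Expression of each of the 10 genes in log2 CPM (TMM scaling) against days of PD feeding. Each point is 1 library, lines and bars are the mean and SD of a group, and panels share a span but not a position on the vertical axis. Idh3b and Dld show every HNKO library below every WT library from day 6 to day 21, whereas the groups of Cs, Idh3a, Mdh2, Mdh1 and Glud1 overlap at each day.

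Counted by day, the number of the 10 genes called lower was 1 at day 3 (Idh3b), 3 at day 6 (Idh3b, Dld and Pdha1), 3 at day 12 (the same genes) and 1 at day 21 (Dld), and none was called higher. Of all tested genes 1.71%, 4.37%, 3.27% and 0.916% were called lower at these days, 2.95%, 8.42%, 4.56% and 2.21% higher, and 4.66%, 12.8%, 7.82% and 3.12% in either direction. Among the 4338 genes within the range of the 10, the shares called lower were 4.7%, 11.9%, 8.6% and 2.7%. With library totals only the counts were 0, 1 (Idh3b), 1 (Dld) and 1 (Dld), against 0.665%, 1.1%, 0.739% and 0.276% of all tested genes called lower. The day 6 count was 1 without WT library 8 or HNKO library 29. Without library 29 the day 6 log2 fold changes not yet given were -0.51 for Cs, -0.11 for Idh3a, -0.13 for Ogdh, -0.26 for Pdha1 and -0.14 for Glud1, none of them called. When each day was fitted alone the counts were 0, 0, 2 and 1, against 0.881%, 1.53%, 1.77% and 0.942% of the genes tested in those fits called lower. The day 6 values of Idh3b (-0.56, adjusted p = 0.0501), Dld (-0.37, 0.0695) and Pdha1 (-0.35, 0.103) were then no longer called, nor were Idh3b at day 3 (-0.34, 0.0993) and Pdha1 at day 12 (-0.33, 0.112). At day 21 it was 0 without HNKO library 37 and 2 without HNKO library 29 of day 6. At day 3 it was 0 without any 1 of libraries 2, 3, 5, 15, 23, 24, 25 and 38, and 2 without library 22. For the fits with 1 library left out, the shares of all tested genes called are not given.

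The groups were also compared by whether their libraries overlapped. Every HNKO library was below every WT library for Idh3b and Dld at day 6 (4.68% of all tested genes had this order), for Idh3b, Idh3g and Dld at day 12 (2.14%) and for Idh3b, Idh3g, Ogdh and Dld at day 21 (6.70%). The opposite order was seen for none of the 10 genes at days 3, 6, 12 and 21, and for 2.31%, 8.08%, 2.65% and 7.25% of all tested genes.

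The genotype difference was not shown to vary with the day. None of the 10 genes passed edgeR's interaction test (0% of all tested genes did, and 4.76% had an unadjusted p under 0.05), and the lowest unadjusted p of the 10 was that of Dld, 0.131. DESeq2 called none of the 10 either. Within WT none of the 10 genes passed edgeR's test of a day effect (5.84% of all tested genes did), whereas 3 had an unadjusted p under 0.05 (21.2% of all tested genes did), namely Ogdh (adjusted p = 0.0805), Idh3b (0.104) and Cs (0.224), and DESeq2 called 2, against 9.14% of all tested genes. Within HNKO only Ogdh passed (edgeR adjusted p = 0.035, against 7.90% of all tested genes). Besides Ogdh, only Dld had an unadjusted p under 0.05 in HNKO (0.0288, edgeR adjusted p = 0.16), as did 22.9% of all tested genes. The mean of Ogdh in HNKO was lowest at day 6 (7.38 log2 CPM) and highest at day 12 (7.69), and in WT it was lowest at day 3 (7.51) and highest at day 12 (7.79). That call was lost without any 1 of the HNKO libraries 11, 12, 13, 29, 30, 31 and 35.

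Libraries numbered 1 to 21 cover all 4 days, as do those numbered 22 to 41, and the labels do not say what sets these 2 label series apart. After quality control the first series had no HNKO library at day 21, which leaves 7 comparisons within a series and day. Idh3b, Idh3g, Ogdh, Dld, Mdh1 and Pdha1 were lower in HNKO in 7 of 7. Cs, Idh3a, Mdh2 and Glud1 were lower in 6 of 7, with the other difference at 0.09, 0.00, 0.05 and 0.07 on the log2 scale.

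Partners of a complex or of a shuttle were set against each other within each library, since such a ratio does not depend on the scaling. The 6 pairs were chosen after their values were seen, so the ratios are given as a description with no test. The log2 ratio of Idh3b to Idh3g was 1.39 ± 0.11 (SD, n = 19) in WT and 1.23 ± 0.11 (n = 19) in HNKO, with differences of -0.13, -0.29, -0.12 and -0.12 at days 3, 6, 12 and 21 and of -0.17 over their mean. The log2 ratio of Dld to Ogdh was -0.86 ± 0.21 in WT and -1.06 ± 0.24 in HNKO, and the difference of -0.22 over the mean of the 4 days was close to the SD within a genotype. The differences of the other 4 pairs, -0.18 for Idh3b to Idh3a, -0.11 for Mdh1 to Mdh2, -0.09 for Dld to Pdha1 and -0.02 for Idh3g to Idh3a, were smaller than the SD within either genotype.

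Compared per length of exon, as TPM (counts per exon length, scaled to the same sum in each library), the 10 genes spanned a wide range in WT liver. Glud1 had the highest level with a median of 678 TPM (range 555 to 991), followed by Mdh1 with 491 (339 to 664) and Idh3b with 119 (101 to 135). Ogdh (91.3), Cs (87.3), Pdha1 (75.9), Dld (75.2), Mdh2 (69.2) and Idh3g (57.0) lay close together, and Idh3a was lowest with 16.6 (13 to 23.3). In all 19 WT libraries Glud1 was above Mdh1, Mdh1 above Idh3b, Idh3b above Ogdh, and Idh3g above Idh3a. Between these, neighbours kept the order in only 11 to 15 of 19 libraries.

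The TPM are scaled to the sum of counts per exon length in each library, so they carry no TMM factor. In HNKO the medians were 763 TPM for Glud1, 463 for Mdh1, 110 for Idh3b, 93.0 for Ogdh, 81.5 for Cs, 70.4 for Pdha1, 68.9 for Dld, 71.3 for Mdh2, 58.6 for Idh3g and 16.3 for Idh3a. With all days pooled, the ranges of WT and HNKO overlapped on this scale for each of the 10 genes. Within a day they did not overlap for Idh3b at day 6 (125 to 135 TPM in WT and 87.7 to 113 in HNKO) and for Dld at day 21 (69.0 to 81.7 and 61.4 to 66.9), where 0.887% and 0.715% of 20287 genes with a length had HNKO below WT in this way on the same scale. The opposite order, with every HNKO library above every WT library, was seen for 13.9% of these genes at day 6 and 23.2% at day 21.

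**Figure D3:**
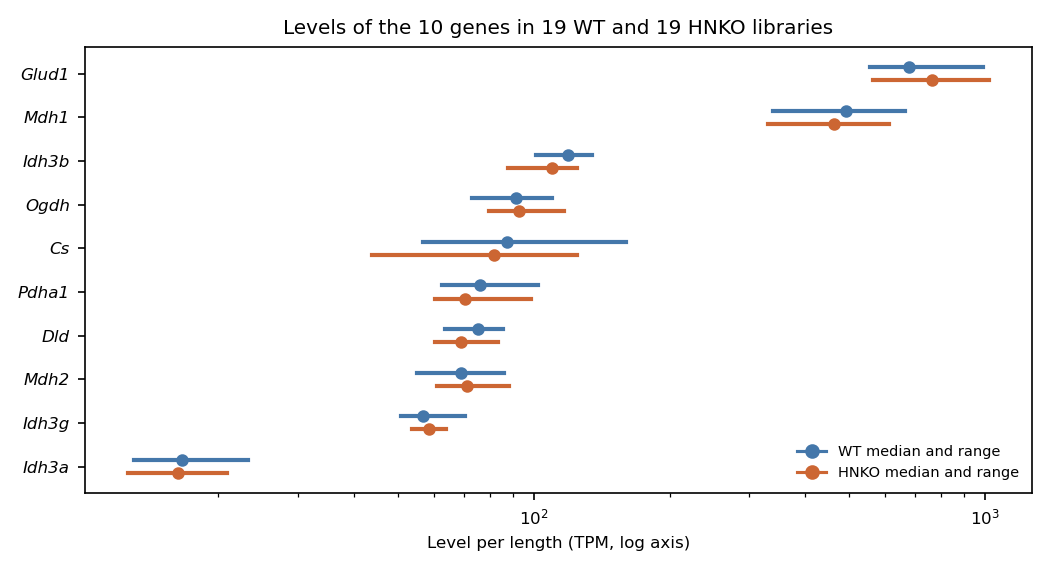
Level per length of the 10 genes in TPM, on a log axis, in the 19 WT and 19 HNKO libraries. Points are medians and lines the range from the lowest to the highest library. Glud1 and Mdh1 stand above the rest and Idh3a below, and with all days pooled the genotypes overlap for each gene on this scale, which carries no TMM factor.

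Around their group means the 10 genes did not move as 1 block. Over the 45 pairs of genes, Pearson's r of the deviations from group means ran from -0.63 (Cs and Idh3a) to 0.76 (Idh3b and Idh3g), with a median of 0.25, and was positive for 34 pairs (38 libraries, given as a description, since all values of a library share its scaling). Idh3g with Ogdh (0.74) and Mdh1 with Glud1 (0.73) followed. Cs, the gene with the widest spread, was the partner in the 4 lowest correlations.

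The genes whose deviations were most like the mean of the 10 were Uqcrc2 (r = 0.87), Atp5b (0.87), Sdha (0.86), Slc10a1 (0.85) and Ndufs1 (0.85), over the same 38 libraries. Uqcrc2, Atp5b, Sdha and Ndufs1 encode subunits of respiratory chain complexes or ATP synthase, and Slc10a1 the bile acid transporter of hepatocytes. Over the mean of the 4 days their log2 fold changes were -0.30, -0.26, -0.42, -0.71 and -0.29 (edgeR adjusted p from 4.7e-08 to 0.000124).

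The GABP match shown for 3 promoters occurs in genes that differed in their values, since Idh3b was called lower at 3 days and Glud1 at none. The CREB match occurs in Mdh2 and Ogdh, which had the smallest called fold changes over the mean of the 4 days (-0.18 and -0.17). GC content of the 9 promoters ran from 47.0% (Dld) to 81.0% (Glud1), against a median of 56.3% for all promoters.

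Beyond the 10 genes, 38 other genes of pyruvate and TCA cycle metabolism were tested, from a list that holds transporters, other enzymes of the cycle and regulators. Over the mean of the 4 days 24 were called lower and 5 higher (17.3% and 19.2% of all tested genes), with a median log2 fold change of -0.29. At days 3, 6, 12 and 21 the counts were 3, 15, 4 and 3 lower and 0, 4, 1 and 0 higher, where 1.71%, 4.37%, 3.27% and 0.916% of all tested genes were called lower and 2.95%, 8.42%, 4.56% and 2.21% higher. The day 6 total of 19 was 5 without HNKO library 29 and 10 without WT library 8. Leaving out 1 library gave totals of 1 to 9 at day 3, 1 to 8 at day 12 and 0 to 5 at day 21. The share of all tested genes called in these fits is not given, so whether such shifts are particular to this list cannot be told. With library totals only, 14 were called lower and 5 higher over the mean of the 4 days, with a median of -0.10, where 4.62% of all tested genes were called lower and 42.5% higher, with a median of 0.19.

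Enzymes of the cycle itself were among those lower. Sdha, a subunit of succinate dehydrogenase, had the smallest p-value of the list (log2 fold change -0.42, SE 0.05, edgeR adjusted p = 4.7e-08). Dlst (-0.27), which works between Ogdh and Dld in the 2-oxoglutarate dehydrogenase complex, and Suclg1 (-0.32) and Sucla2 (-0.31), subunits of succinyl-CoA ligase, were called lower, as were the cytosolic Aco1 (-0.24) and the mitochondrial transaminase Got2 (-0.29). With library totals only Dlst (adjusted p = 0.0512) and Aco1 (adjusted p = 0.317) were no longer called. Fh1, fumarase, was at -0.02 (adjusted p = 0.871).

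Genes that set the entry of pyruvate moved in both directions. Mpc1, a subunit of the mitochondrial pyruvate carrier, was called lower (-0.40, edgeR adjusted p = 2.72e-06). The kinases that inhibit pyruvate dehydrogenase were lower for Pdk2 (-0.66) and Pdk1 (-0.62) and higher for Pdk3 (0.72), and Pdk4 was not called (-0.23, adjusted p = 0.651). The phosphatases that activate it were lower for Pdp2 (-0.59) and higher for Pdp1 (0.63), and their regulator Pdpr was lower (-0.33). These genes differed in level. Group means were -0.48 to 0.64 log2 CPM for Pdk3, against 6.72 to 7.74 for Pdk1 and 5.19 to 6.35 for Pdk2. They were 1.23 to 2.19 for Pdp1, against 5.52 to 6.43 for Pdp2. The other genes called higher were Pck2 (0.69), Me2 (0.44), the NAD-linked malic enzyme of mitochondria, and Ogdhl (0.95), and of these Ogdhl was at a mean of -2.51 to -1.40 log2 CPM in every group, close to the limit of the filter. Group means were 1.86 to 2.71 log2 CPM for Pck2 and 2.54 to 3.44 for Me2. Pdk3, Ogdhl, Pdk4 and Fh1 lie outside the rule for named genes and were named after their values were seen. All of these directions were kept with library totals only, except that Pdk4 and Fh1, which were not called, moved to 0.00 and 0.16.

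**Figure D4:**
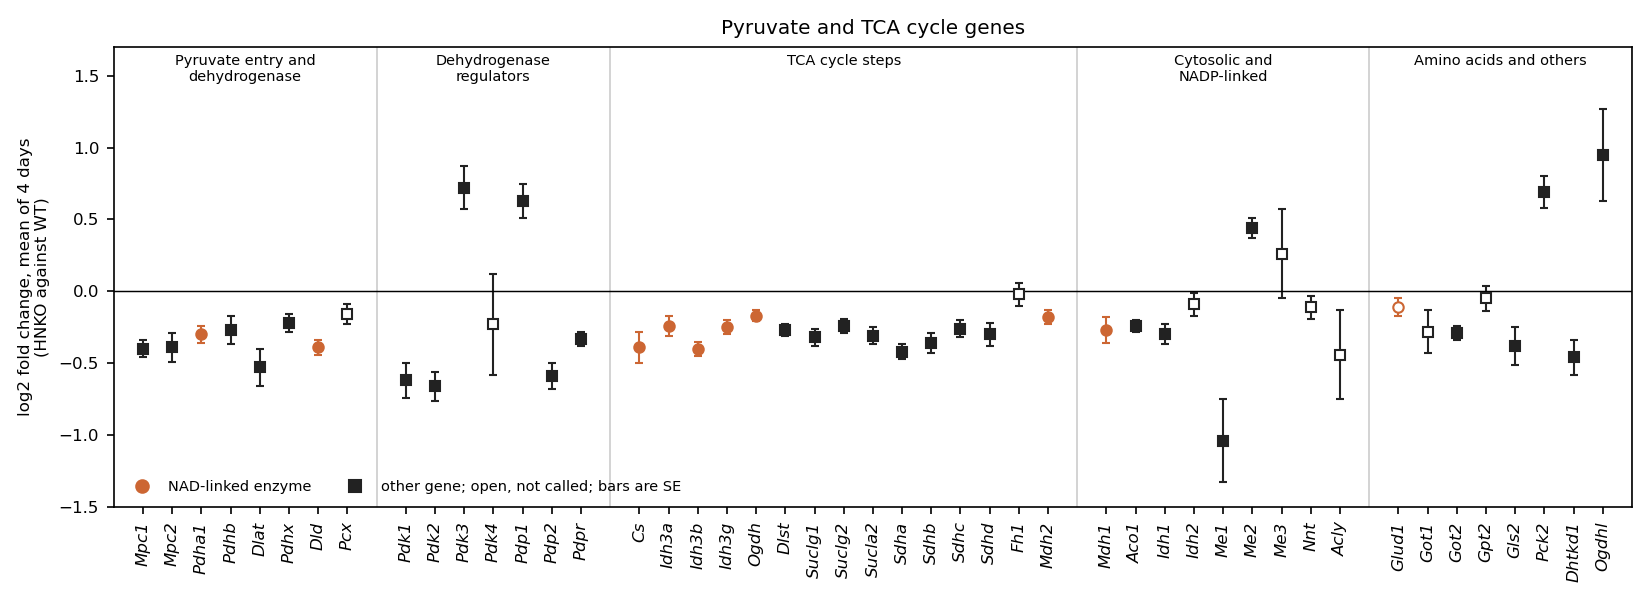
Log2 fold change of HNKO against WT over the mean of the 4 days for the 10 genes (circles) and 37 of the 38 other genes (squares) by function, with bars for the SE and filled symbols for an adjusted p under 0.05 (edgeR, TMM scaling). All 10 circles and 31 of the 37 squares lie below 0, and with library totals only these numbers are 7 of 10 and 25 of 37.

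Markers of several liver cell types differed between the genotypes over the mean of the 4 days, where 17.3% of all tested genes were called lower and 19.2% higher. Of 9 hepatocyte markers 4 were called lower, with a summed level of 90600 to 149000 CPM in WT and 56900 to 122000 in HNKO. All 6 cholangiocyte markers were called higher, from 34.3 to 48.8 CPM in WT against 107 to 754 in HNKO, without overlap. Among the stellate cell and fibroblast markers 6 of 7 were called higher (124 to 259 against 116 to 1060 CPM), and among those of macrophages 4 of 6 (198 to 478 against 256 to 600 CPM). For lymphocytes 1 of 6 was called higher (27.9 to 85.5 against 42.8 to 123 CPM), for neutrophils 3 of 3 tested (of 4 markers, 0.478 to 2.36 against 0.610 to 23.3 CPM), and for endothelial cells 1 of 5 was called lower (424 to 531 against 416 to 512 CPM). The lymphocyte marker called was Ptprc (log2 fold change 0.65, edgeR adjusted p = 4.38e-06), which encodes CD45, the study's stain for leukocytes. Cd3e, Cd8a and Nkg7 were above 0 and Ms4a1 and Cd79a below 0, none of them called. Cftr, Ly6g and Retnlg were at 0 in some libraries and none of the markers was at 0 in all.

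Around the group means, the mean of the 10 genes had a Pearson's r of 0.68 with the summed hepatocyte markers, -0.78 with those of cholangiocytes, -0.70 with those of stellate cells and fibroblasts and -0.65 with those of lymphocytes, and of -0.49 with those of neutrophils, -0.12 with those of macrophages and 0.20 with those of endothelial cells (38 libraries, as a description, with library scaling in common). HNKO library 29, lowest in the mean of the 10 genes, had the highest cholangiocyte sum, 754 CPM, and the lowest hepatocyte sum, 56900 CPM. The part of these cell type markers in the lower level of the 10 genes was not tested.

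**Figure D5:**
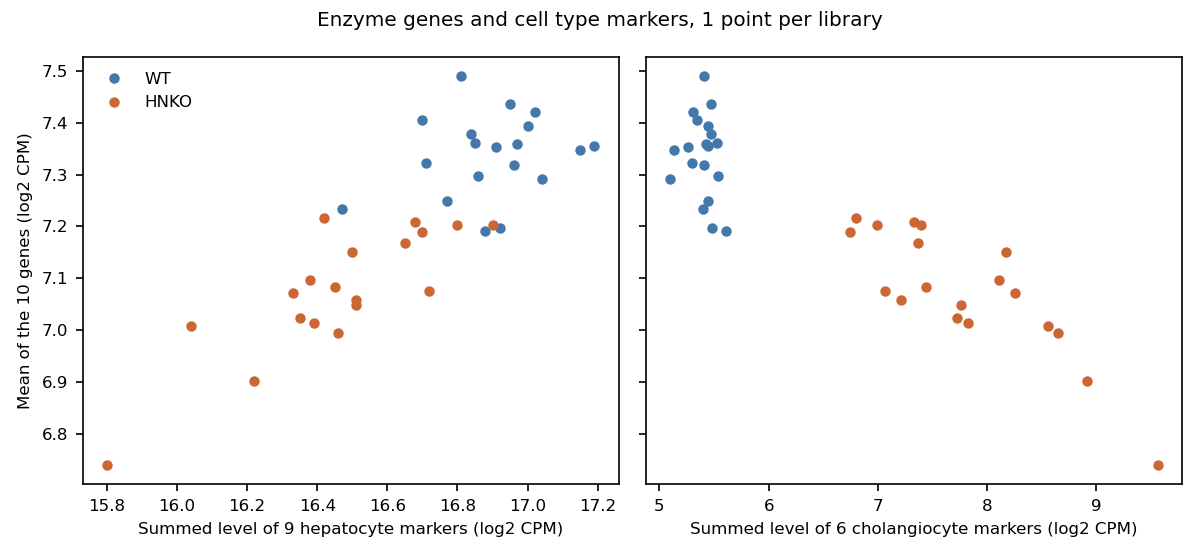
Mean of the 10 genes in log2 CPM against the summed level of 9 hepatocyte markers (left) and 6 cholangiocyte markers (right), with 1 point per library. WT libraries stay at 34.3 to 48.8 CPM of cholangiocyte markers on the linear scale while HNKO libraries spread up to 754 CPM, and the HNKO libraries with the most cholangiocyte marker RNA have the lowest mean of the 10 genes.

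The 2 HNKO libraries that failed quality control held 12287423 (library 17) and 15935527 counts (library 18). Scaled together with the other 38, library 17 lay below every WT library of day 21 for 5 of the 10 genes and above for 2 (Ogdh at 7.99 and Mdh2 at 6.96 log2 CPM), and library 18 lay below for 4 and above for 0. In Dld, the gene called at day 21, they held 6.57 and 6.58 log2 CPM, above the 3 other HNKO libraries and within the WT range.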

How the data were processed

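Liver RNA of 40 mice was depleted of rRNA and sequenced as 51-bp paired-end reads. Alignment by the authors was to GRCm38 with STAR 2.7.2b, and they counted fragments with both ends aligned on GENCODE M22 genes with featureCounts 1.6.4. They deposited 1 table of raw counts per gene, which was used without change. The use of strand in counting is not given in the sources used here. Symbols, exon lengths and positions came from GENCODE M21 of the same build, with 55394 of 55487 identifiers matched.

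Genes were kept by edgeR's filterByExpr (minimum count 10, minimum total count 15, proportion 0.7). Counts of 38 libraries, with totals from 16151037 to 64181492, received TMM factors and entered a model with 1 mean for each of 8 groups, and HNKO was compared with WT at each day and over the mean of the 4 days, all days weighted equally, by the quasi-likelihood F test of edgeR 4.0.16 (R 4.3.3, legacy computation). Benjamini-Hochberg adjustment was over 20297 genes, and an adjusted p under 0.05 was called. SE are those that the test statistic implies, and log2 CPM used a prior count of 2. TPM are counts per exon length. The tests were also run on simulated counts with 200 changed genes, whose changes were set larger than those seen in the 10 genes. That outcome is not reported here. The WT mice were littermates of HNKO mice, but the labels do not say which mice shared a litter or were handled separately. Litter could therefore not enter the model, and p-values measure the spread between these mice, taken as independent.

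All 10 enzymes are named. Of the other pathway genes, those called at 1 or more days or over the mean of the 4 days were named, up to 15 by smallest p, with Nampt and the 5 genes most correlated with the mean of the 10. Of the other pathway genes, 1 enters the counts but is not reported here. The members, lists and tests were chosen with earlier results of these data known. Alternatives were RLE size factors, DESeq2 1.42.0, no filter beyond 1 count, all 40 libraries, a fit of the 2 groups of a day, the label series as a covariate, the edgeR 4 computation, and leaving out each library. Library totals only and the partner ratios were added after seeing the data. Promoter sequences are from RefSeq, and the NRF1 and YY1 motifs were first searched in a longer form, which matched the same numbers of the 9 promoters. Protein sequences were not used here.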

Additional observations from a re-analysis of the deposited data

Results flagged for a closer look

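In 4 of the 70 combinations of gene and group with at least 4 libraries, 1 library stood far from the others by Dixon's criterion, and chance flags about 1 in 20, or 3.5 of 70. Dld was lowest in HNKO library 29 at day 6 with 6.18 log2 CPM, against 6.52 in the next library, and the call of Dld at day 6 was lost without it. Ogdh was lowest in HNKO library 23 at day 3 with 7.21 log2 CPM, against 7.45. Glud1 was highest in WT library 33 at day 12 with 10.42 log2 CPM, against 10.13. Pdha1 was highest in WT library 24 at day 3 with 7.09 log2 CPM, against 6.85. The 4 values came from 4 different libraries.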

How the results depend on the processing

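Scaling to library totals only, added after seeing the data, moved the most results. The number of the 10 genes called became 0 at day 3, 1 at day 6, 1 at day 12 and 2 over the mean of the 4 days, that of the other pathway genes 11 at day 6, 3 at day 12 and 19 over the mean of the 4 days, and that with a day effect in WT 1. Of all tested genes 8.83%, 15.6% and 11.2% were called in either direction at days 3, 6 and 12. Over the mean of the 4 days 47.1% were called, and 5.06% had a day effect in WT. In that scaling the log2 fold change turned positive for Cs (0.08), Idh3a (0.07), Ogdh (0.09) and Mdh2 (0.11) at day 3, for Idh3a (0.05) at day 6, for Ogdh (0.09), Mdh2 (0.05) and Mdh1 (0.03) at day 12, for Mdh1 (0.05), Pdha1 (0.00) and Glud1 (0.13) at day 21, and for Ogdh (0.02), Mdh2 (0.01) and Glud1 (0.08) over the mean of the 4 days. The lower factors of WT libraries are what this scaling removes.

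With DESeq2 the counts were 2 at day 3 and 3 at day 21 for the 10 genes, 5 and 5 for the other pathway genes at these days, and 2 for the day effect in WT, where DESeq2 called 7.04% and 4.9% of all genes at these days. Calls that DESeq2 added were Pdha1 at day 3 (DESeq2 adjusted p = 0.0458), Idh3a at day 12 (0.0467), and Idh3b (0.0447) and Ogdh (0.0473) at day 21. Without a filter the counts were 0 at day 3 and 1 at day 12 for the 10 genes, 1 and 3 for the others, and 0 for the day effect in HNKO, with 1.6% and 2.76% of all genes called at these days. With all 40 libraries the count of the 10 genes at day 3 was 0, and the others had 1 at day 3, 12 at day 6 and 3 at day 12, with 1.66%, 6.61% and 3.12% of all genes called. Fitting only the groups of 1 day gave 0 of the 10 at days 3 and 6, and 3 of the others at day 6. With the label series as a covariate 4 of the 10 genes were called at day 6, Idh3g among them, 2 genes had a day effect in WT (14.8% and 11% of all genes were called), and Glud1 at day 12 was -0.03. The cause of these differences was not tested, other than that fewer libraries entered the fits of 1 day. Under RLE size factors and the edgeR 4 computation none of the 10 genes changed its direction or its call, and with RLE the count of the other pathway genes was 4 at day 12 and 2 at day 21.

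Leaving out each library in turn gave 0 to 2, 1 to 4, 2 to 4 and 0 to 2 of the 10 genes at days 3, 6, 12 and 21 and 8 to 9 over the mean of the 4 days. The other pathway genes ranged over 1 to 9, 5 to 21, 1 to 8, 0 to 5 and 26 to 30, and the day effects over 0 to 1 in WT and 0 to 1 in HNKO. Shares of all tested genes called in these fits are not given. Signs changed for Mdh1 at day 21 (-0.23 to 0.03), Glud1 at day 12 (-0.05 to 0.07) and the ratio of Idh3g to Idh3a (-0.04 to 0.01). No paired analysis was possible because the library numbers are unique and the groups share none. Groups of 3 to 6 libraries limit what a single day can show.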
